A study of Mus musculus with 20 samples.

Results

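The genes described here encode the pyruvate dehydrogenase complex, the enzymes that switch it off and on, and the carrier that supplies it with pyruvate. The 10 genes were 3 kinases (Pdk1, Pdk2 and Pdk4), 2 phosphatases (Pdp1 and Pdp2), 4 genes of the catalytic complex (Pdha1, Pdhb, Dlat and Pdhx) and 1 subunit of the mitochondrial pyruvate carrier (Mpc1). They were taken by name from the 18193 genes of an Affymetrix mouse array that had at least 1 probe set annotated with exactly 1 gene symbol. Each gene was represented by its probe set of highest mean over the 20 arrays. All 10 were found, with 18 probe sets in all, and all 10 were among the 12082 genes whose mean lay above the median of all probe sets, a log2 value of 6.93.

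Each array held ventricle RNA of female C57BL/6 mice that had been ovariectomized at 8 weeks of age and had carried an osmotic minipump for 4 weeks. The operation takes away the ovaries, which make most estrogen in the blood, and every group had undergone it, placebo included. The 4 groups of 5 arrays received 16α-LE2 (titled alpha, and described in the labels as acting on estrogen receptor α), 17β-estradiol (titled E2, an agonist of both classical estrogen receptors), an uncertain treatment (titled beta), or placebo (titled OVX). For the arrays titled beta the treatment label reads control solution, so title and label disagree; they form the beta-titled group here and were not merged with placebo. The labels state no dose, and 16α-LE2 and estradiol are thus matched in duration only. Nothing in the labels says in so many words that the samples of a group came from separate animals, so the p-values measure the spread between these samples, which may be in part technical.

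The pyruvate dehydrogenase complex sits in the mitochondrial matrix and turns pyruvate into acetyl-CoA, the step that commits carbon from glucose to oxidation. The kinases phosphorylate its E1α subunit and stop it, and the phosphatases restore it. In the heart, Pdk4 is known as the kinase whose mRNA climbs in fasting, diabetes and other states of high fat use, through PPAR, FOXO and glucocorticoid signals, and that spares glucose by holding the complex off. The series asked how estrogen receptor α bears on glucose uptake by the heart. The 10 genes ask whether the transcripts that gate pyruvate oxidation differed between the groups.

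The start-site windows of Pdk4 and Mpc1 are shown because the levels of these genes varied together across arrays, as described further on. Both are the 250 bases before the start site, read 5′ to 3′ on the strand of the gene, from RefSeq on build GRCm38.p6. Pdk4 lies at chr6:5483351-5496278 on the minus strand and its window at chr6:5496279-5496528, while Mpc1 lies at chr17:8283787-8297667 on the plus strand and its first listed window at chr17:8283537-8283786. Capitals mark matches to an estrogen response half-site (GGTCA, or TGACC on the other strand), a CCAAT box (CCAAT or ATTGG) or an Sp1 GC box (GGGCGG or CCGCCC).
Pdk4: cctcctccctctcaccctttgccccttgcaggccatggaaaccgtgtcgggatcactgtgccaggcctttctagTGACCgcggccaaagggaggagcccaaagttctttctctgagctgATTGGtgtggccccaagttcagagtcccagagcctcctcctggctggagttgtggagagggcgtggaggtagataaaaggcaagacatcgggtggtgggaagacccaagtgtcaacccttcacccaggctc
Mpc1: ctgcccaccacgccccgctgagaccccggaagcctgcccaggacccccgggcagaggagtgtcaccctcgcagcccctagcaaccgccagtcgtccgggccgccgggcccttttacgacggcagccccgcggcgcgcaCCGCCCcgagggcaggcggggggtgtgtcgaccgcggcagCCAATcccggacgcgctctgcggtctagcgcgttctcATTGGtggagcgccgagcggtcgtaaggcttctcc

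In the Pdk4 window the half-site lay at bases -176 to -172 and the CCAAT box at -131 to -127, counted from the start site. The Mpc1 window held CCAAT boxes at -72 to -68 and -35 to -31 and a GC box at -112 to -107, and half-sites were found in its other listed window only. Motifs were searched on both strands of windows that ran from 250 bases before to 50 after the start, of which 9 of the 10 genes had 12. A half-site stood in 4 of the 12 windows (33.3%; 1 each of Dlat, Mpc1, Pdk1 and Pdk4), against 40.5% of all 32841 windows, and a CCAAT box in 6 of the 12 (50%), against 37.4%. A GC box stood in 7 of the 12 (58.3%), against 35.7%. A full estrogen response element, the half-site facing its inverse across a spacer of 3 bases, was in none of the 12 windows and in 0.07% of all windows, and a FOXO element (TGTTTAC) was in none of the 12 and in 3.65% of all. The PPAR and glucocorticoid elements searched were also in none of the 12, and in 0.0396% and 0.00913% of all. A half-site match is common by these shares, and a missing match says only that those letters are not in these windows.

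The arrays were close to each other with 1 exception. Spearman's rho between arrays was at least 0.978 and reached 0.992, apart from pairs with estradiol array 33, where it ran from 0.922 to 0.940. Cardiomyocyte markers were high throughout, with 8 of 8 above the filter and a mean log2 level of 13.91 to 14.33 over the 20 arrays. Atrial markers (Myl7, Myl4, Sln and Nppa) differed widely between arrays of every group, with a mean level of 8.48 to 10.66 in 16α-LE2, 9.37 to 11.61 in estradiol, 8.91 to 10.64 in beta-titled and 9.22 to 10.34 in placebo arrays. The SD of all values on an array averaged 1.39 log2 units in 16α-LE2, 1.41 in estradiol, 1.38 in beta-titled and 1.44 in placebo arrays, and several of the 10 genes followed it, as given below.

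Pdk4 had log2 values of 13.46, 13.76, 13.51, 13.23 and 13.53 on 16α-LE2 arrays 29, 30, 32, 33 and 34. On estradiol arrays 29, 30, 33, 34 and 35 its values were 13.92, 13.85, 12.98, 12.58 and 12.58. Of the estradiol arrays, 2 lay within the placebo range and 3 lay below every array of the other groups. On beta-titled arrays 31, 32, 33, 35 and 36 the Pdk4 values were 13.20, 13.23, 13.36, 13.56 and 13.43. On placebo arrays 31, 32, 33, 34 and 36 they were 13.88, 13.93, 13.98, 13.68 and 13.38. Each group overlapped placebo, whose lowest array, 36, lay below some array of every other group.

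**Figure D1:**
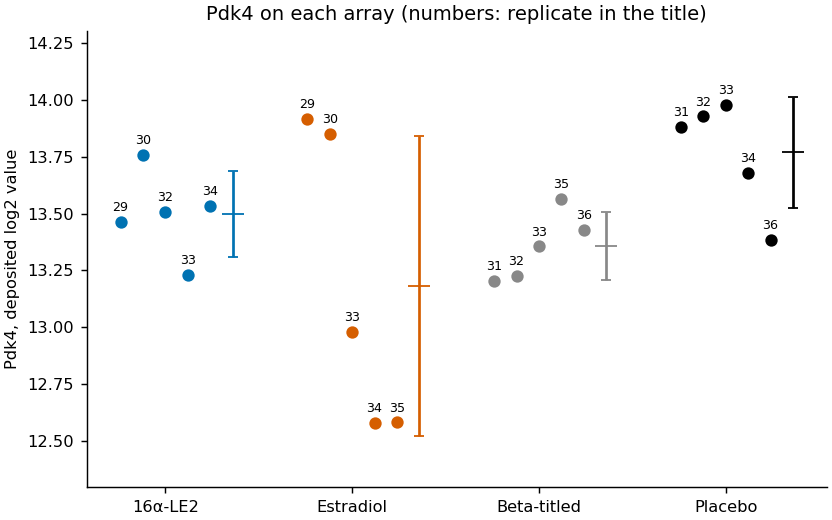
Deposited log2 value of Pdk4 (vertical axis) on each of the 20 arrays by group, with the title number beside each point and the group mean ± SD (n = 5) as a bar to its right. Estradiol arrays 33, 34 and 35 lie at 12.98 or lower, below all arrays of the other groups, and estradiol arrays 29 and 30 lie at 13.92 and 13.85.

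As group means, Pdk4 stood at 13.50 ± 0.19 with 16α-LE2, 13.18 ± 0.66 with estradiol, 13.36 ± 0.15 in the beta-titled group and 13.77 ± 0.24 with placebo (SD, n = 5 each). The difference from placebo was -0.27 ± 0.20 log2 units for 16α-LE2, -0.59 ± 0.20 for estradiol and -0.41 ± 0.20 for the beta-titled group (SE), which are levels 1.21-fold, 1.5-fold and 1.33-fold lower than placebo. None passed limma's test over all genes, with adjusted p of 0.751, 0.499 and 0.707 in that order. The exact two-sided permutation test on Pdk4 alone gave p = 0.0873 for 16α-LE2, 0.103 for estradiol and 0.0238 for the beta-titled group, and 0.206, 0.206 and 0.143 after Benjamini-Hochberg adjustment over the 6 pairs of groups. The smallest p this test allows with 5 against 5 arrays is 0.00794. Below the placebo mean lay 5 of 5 arrays with 16α-LE2, 3 of 5 with estradiol and 5 of 5 in the beta-titled group. The 95% interval of the estradiol difference, -1.01 to -0.17, left out 0 before adjustment, and those of 16α-LE2 (-0.69 to 0.15) and of the beta-titled group (-0.83 to 0.01) included it. These intervals and SEs rest on a spread pooled over all groups. The SD of Pdk4 itself was 0.66 with estradiol and 0.15 in the beta-titled group, so the intervals do not rank the 3 differences. The exact test used only the arrays of the groups compared.

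Ordered by mean, Pdk4 was highest with placebo, then 16α-LE2, then the beta-titled group, then estradiol, and no neighbours in that order differed beyond their spread. Pdk4 was 0.32 higher with 16α-LE2 than with estradiol (95% interval -0.10 to 0.74; limma adjusted p = 0.875) and 0.14 higher than in the beta-titled group (-0.28 to 0.56; limma adjusted p near 1). The difference between estradiol and the beta-titled group was -0.17 (-0.59 to 0.24; limma adjusted p = 0.925). In the estradiol group the spread itself was the feature of Pdk4, since its SD there lay at percentile 99.8 of all 12082 genes, against percentile 86.5 in 16α-LE2, 58.4 in the beta-titled group and 90.2 in placebo arrays. Its SD within groups, pooled, was 0.37, against a median of 0.16 over all genes.

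Of the 3 low estradiol arrays, array 33 was the one that correlated least with the rest, array 35 had the highest atrial marker level of all 20 (11.61, against 9.37 to 10.11 on the other estradiol arrays), and array 34 was high for Pdp2, as given below. The estradiol difference was -0.54 without array 33, -0.44 without array 34 and -0.44 without array 35, against -0.77 without array 29. The mean level of each of 10 marker lists was set against Pdk4 over the 20 arrays, as a description. The highest values were those of the 8 cardiomyocyte markers (r = 0.41, rho = 0.56) and the 2 brown adipocyte markers (r = 0.41, rho = 0.42), and atrial markers had an r of -0.23 and the remaining 7 lists an r of -0.27 to 0.28. Cardiomyocyte markers averaged 14.00 to 14.33 on estradiol arrays and 13.92 to 14.27 on placebo arrays. Of the brown adipocyte markers, Cidea had an r of 0.59 with Pdk4, while Ucp1, the defining one, was below the filter (6.37 to 6.80 over the 20 arrays) and had an r of -0.57. Cidea differed from placebo by -0.09 with 16α-LE2, -0.40 with estradiol and -0.16 in the beta-titled group. The part of these markers in the Pdk4 result was not tested. In bulk RNA, fewer cells of a type and less RNA per cell cannot be told apart.

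No gene of the 10 was called in any of the 6 comparisons at a limma adjusted p under 0.05. The share of all 12082 genes called was 0.223% for 16α-LE2 against placebo (27 genes, 3 higher and 24 lower, or 7 higher and 16 lower after quantile normalization, which gives all arrays 1 distribution), 0% for estradiol against placebo and 0% for the beta-titled group against placebo. It was 0.0166% for 16α-LE2 against estradiol, 0.174% for 16α-LE2 against the beta-titled group and 0% for estradiol against the beta-titled group. At such shares a count of 0 among 10 genes does not set them apart from other genes. At an unadjusted limma p under 0.05 Pdk4 passed for estradiol against placebo, as 9.63% of all genes did, and Pdha1 and Pdhx passed for the beta-titled group against placebo, as 5.70% of all genes did. The limma p of Pdk4 was 0.00796 before adjustment, with the spread pooled over all groups, against 0.103 in the exact permutation test. None of the 10 passed that mark for 16α-LE2 against placebo (9.01% of all genes), 16α-LE2 against estradiol (5.19%), 16α-LE2 against the beta-titled group (5.60%) or estradiol against the beta-titled group (3.83%). Groups overlapped for all 10 genes in each of the 6 comparisons, while the share of all genes without overlap was 3.28% for 16α-LE2, 0.877% for estradiol and 0.844% for the beta-titled group against placebo. It was 0.753% for 16α-LE2 against estradiol, 2.28% for 16α-LE2 against the beta-titled group and 0.397% for estradiol against the beta-titled group.

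The direction against placebo was mostly downward on the deposited values. With 16α-LE2, 9 of 10 genes lay below placebo with a median difference of -0.12, against 59.7% and -0.03 over all genes tested. With estradiol 8 of 10 lay below and the median was -0.10, against 57.1% and -0.03. In the beta-titled group 9 of 10 lay below and the median was -0.18, against 62.6% and -0.04. After quantile normalization 8, 4 and 8 of 10 lay below placebo in that order, with medians of -0.03, 0.02 and -0.03, so that the median under estradiol turned to lie above placebo. The 3 comparisons share the placebo arrays, so their directions are not independent. Apart from Pdk4, all 95% intervals against placebo lay between -0.48 and 0.49 log2 units for the probe sets that represent the genes. These intervals are for single genes, unadjusted and on the deposited values. A second Pdha1 probe set reached lower. Its intervals were -0.55 to 0.11 for 16α-LE2, -0.62 to 0.04 for estradiol and -0.65 to 0.005 for the beta-titled group.

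**Figure D2:**
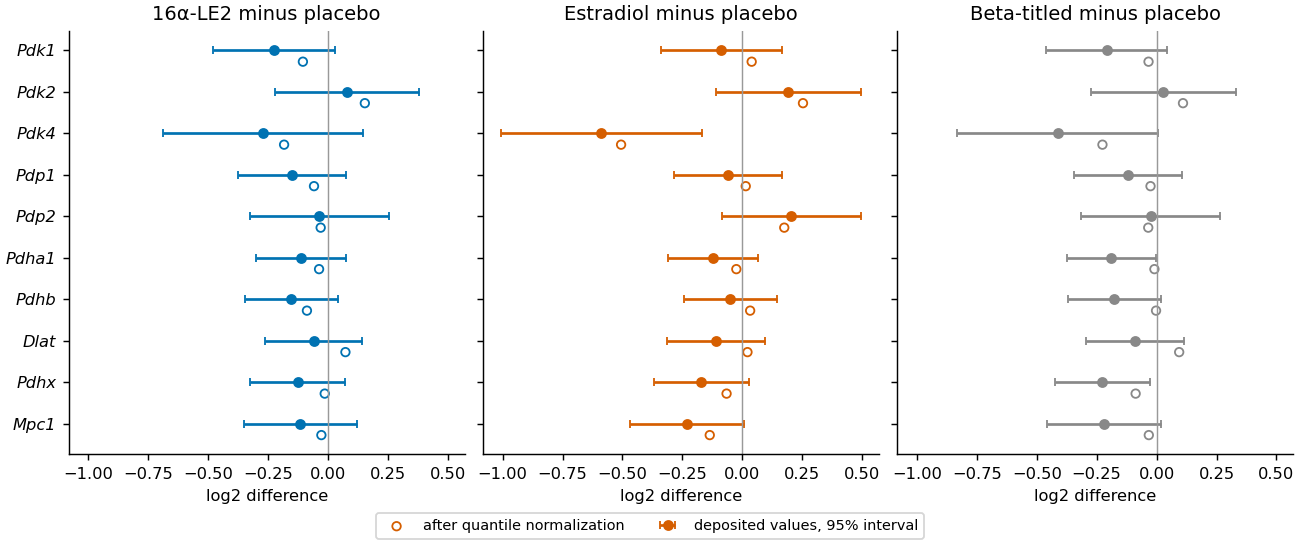
Log2 difference from placebo (horizontal axis) of the 10 genes (rows) for 16α-LE2, estradiol and the beta-titled group. Filled points with bars are the deposited values with their 95% intervals and hollow points the same differences after quantile normalization, which lie nearer to 0 for most genes other than Pdk2, while Pdk4 under estradiol stays at -0.51.

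Among the other kinases, Pdk1, a kinase that is induced by hypoxia and acts on the same E1α subunit, averaged 10.77 ± 0.09 with 16α-LE2, 10.91 ± 0.14 with estradiol, 10.78 ± 0.30 in the beta-titled group and 10.99 ± 0.18 with placebo. Its difference from placebo was -0.22 ± 0.12 (SE) for 16α-LE2, -0.09 ± 0.12 for estradiol and -0.21 ± 0.12 for the beta-titled group, with limma adjusted p of 0.617, 0.730 and 0.707. The 16α-LE2 arrays ran from 10.62 to 10.87 and all lay below the placebo mean, while placebo ran from 10.69 to 11.14. Pdk1 has 3 further probe sets. Those with means of 9.82 and 9.26 gave differences from placebo of -0.16 to -0.09, and the one below the filter, with a mean of 6.22, gave 0.08 to 0.14.

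Pdk2, the kinase expressed most widely across tissues, was the 1 kinase that lay above placebo in each group. It averaged 8.87 ± 0.13 with 16α-LE2, 8.98 ± 0.29 with estradiol, 8.82 ± 0.23 in the beta-titled group and 8.79 ± 0.32 with placebo. The differences were 0.08, 0.19 and 0.03 with an SE of 0.15 each, and the limma adjusted p was 0.929, 0.542 and 0.969. The highest single array was estradiol array 34, at 9.43. Pdk3 lay below the filter, with a mean of 6.77, and was not tested.

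The phosphatases undo what the kinases do. Pdp1, the calcium-sensitive form that is abundant in muscle, averaged 8.84 ± 0.11 with 16α-LE2, 8.92 ± 0.15 with estradiol, 8.86 ± 0.23 in the beta-titled group and 8.98 ± 0.18 with placebo. Its differences from placebo were -0.15, -0.06 and -0.12 (SE 0.11 each) with limma adjusted p of 0.748, 0.791 and 0.772. Its second probe set, with a mean of 8.18, gave -0.13 for 16α-LE2, 0.01 for estradiol and -0.14 for the beta-titled group.

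Pdp2, the phosphatase known in rodents for its response to insulin, was near the filter and mostly flat. Its values were 7.39, 7.27, 7.43, 6.91 and 7.49 on the 16α-LE2 arrays and 7.25, 7.36, 7.36, 8.26 and 7.45 on the estradiol arrays, in the array order given for Pdk4. They ran from 7.20 to 7.38 on beta-titled and from 7.17 to 7.60 on placebo arrays. Estradiol array 34, at 8.26, stood well above the next in its group. On that array Pdk4 had its lowest value of all arrays (12.581), nearly level with estradiol array 35 (12.583). Without that array the difference between estradiol and placebo was 0.02, against 0.20 ± 0.14 (SE; limma adjusted p = 0.519) with it.

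The E1 heterotetramer is built from Pdha1, whose E1α subunit carries the phosphorylated serines, and Pdhb, the E1β subunit. Pdha1 had values of 13.08, 13.17, 13.28, 13.26 and 13.09 on 16α-LE2 arrays and 13.20, 13.28, 13.11, 13.12 and 13.11 on estradiol arrays. It had 12.98, 12.88, 13.15, 13.21 and 13.27 on beta-titled arrays and 13.43, 13.32, 13.42, 13.28 and 12.97 on placebo arrays. Placebo arrays 31, 32, 33 and 34 lay above all arrays of the other groups, array 34 only just (13.285, against 13.283 on estradiol array 30). Placebo array 36 lay among the lowest. The differences from placebo were -0.11 for 16α-LE2, -0.12 for estradiol and -0.19 for the beta-titled group (SE 0.09 each; limma adjusted p of 0.780, 0.538 and 0.707). A second Pdha1 probe set, with a mean of 11.03, gave -0.22, -0.29 and -0.32.

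Pdhb averaged 12.99 ± 0.03 with 16α-LE2, 13.09 ± 0.09 with estradiol, 12.97 ± 0.18 in the beta-titled group and 13.14 ± 0.20 with placebo. Its differences from placebo were -0.15, -0.05 and -0.18 (SE 0.09 each; limma adjusted p of 0.671, 0.798 and 0.707). The spread of Pdhb within the 16α-LE2 group was at percentile 2.84 of all genes. Its second probe set gave -0.17, -0.07 and -0.20.

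Dlat, the E2 subunit that forms the core and carries the lipoyl arms, averaged 10.97 ± 0.10 with 16α-LE2, 10.92 ± 0.15 with estradiol, 10.94 ± 0.17 in the beta-titled group and 11.03 ± 0.10 with placebo. Its differences of -0.06, -0.11 and -0.09 (SE 0.10 each) had limma adjusted p of 0.918, 0.592 and 0.818. The gene's 2 other probe sets gave differences from placebo between -0.12 and 0.01.

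Pdhx, which binds the E3 subunit to that core, had values of 9.70, 9.71, 9.75, 9.80 and 9.52 on 16α-LE2 arrays, 9.76, 9.77, 9.47, 9.68 and 9.57 on estradiol arrays, 9.45, 9.38, 9.83, 9.64 and 9.68 on beta-titled arrays, and 9.89, 9.87, 9.88, 9.81 and 9.66 on placebo arrays. Placebo arrays 31, 32 and 33 lay above every array of the other groups, as for Pdha1. The differences were -0.13 for 16α-LE2, -0.17 for estradiol and -0.23 for the beta-titled group (SE 0.10 each; limma adjusted p of 0.753, 0.499 and 0.707).

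Mpc1, 1 of the 2 subunits of the inner-membrane pyruvate carrier, had values of 13.12, 13.36, 13.40, 13.33 and 13.37 on 16α-LE2 arrays and 13.47, 13.42, 13.04, 12.89 and 13.18 on estradiol arrays. It had 13.02, 13.03, 13.19, 13.34 and 13.47 on beta-titled arrays and 13.65, 13.51, 13.53, 13.22 and 13.23 on placebo arrays. Within the estradiol group, the arrays low in Pdk4 (33, 34 and 35) were also the arrays low in Mpc1. The differences from placebo were -0.12 ± 0.11 for 16α-LE2, -0.23 ± 0.11 for estradiol and -0.22 ± 0.11 for the beta-titled group (SE), with limma adjusted p of 0.854, 0.499 and 0.707. The other carrier subunit, Mpc2, had no probe set of a single symbol in the annotation used.

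**Figure D3:**
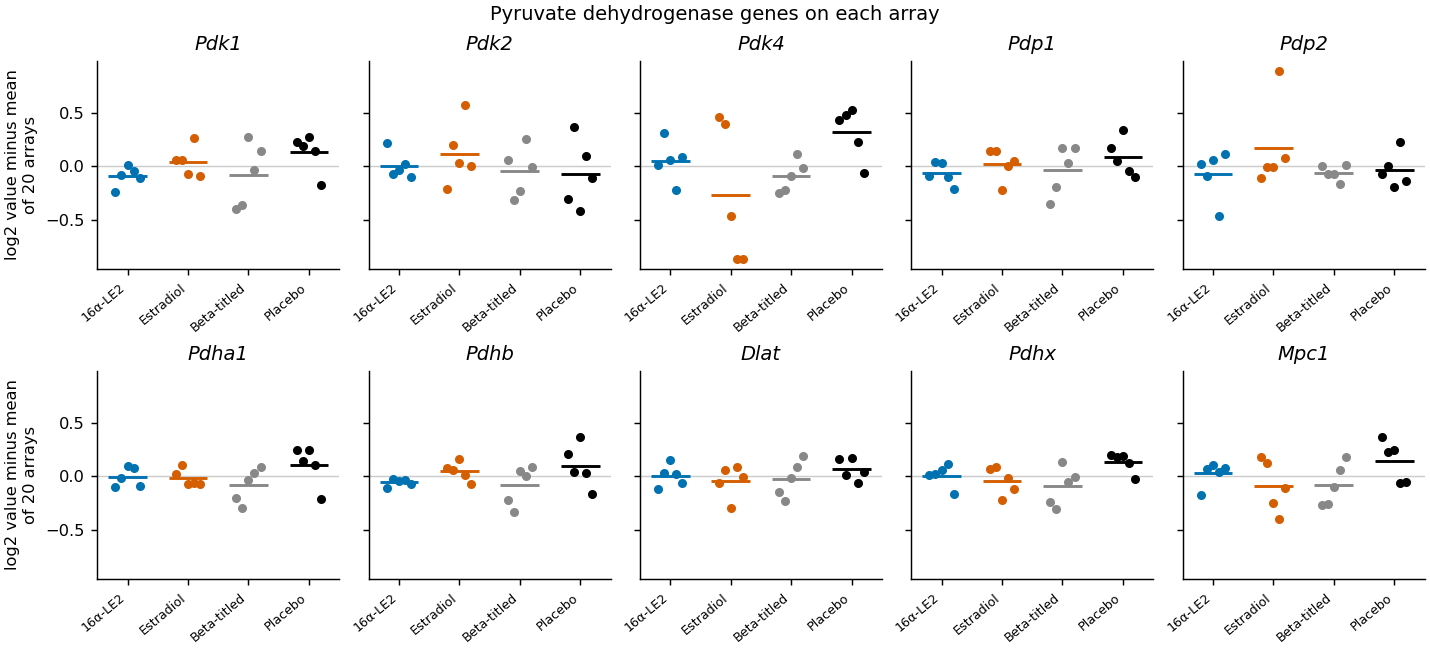
Log2 value minus the gene's mean over the 20 arrays (vertical axis, shared) for each of the 10 genes, by group, with 1 point per array in the order of title number and a line at the group mean. The Pdk4 points of the estradiol group spread most, Pdp2 has 1 high estradiol array at 8.26 on the log2 scale, and the catalytic genes stay within about 0.4 of their means.

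Most of the 10 genes followed the spread of the array on which they were measured. The share of all genes that did so was not counted. Whether this relation sets the 10 genes apart from other genes was therefore not tested. The Pearson r with the SD of all values on an array, over 20 arrays, was 0.86 for Pdhx, 0.83 for Pdha1, 0.83 for Pdk1, 0.82 for Pdp1, 0.81 for Dlat, 0.74 for Pdhb, 0.70 for Mpc1 and 0.47 for Pdk4, with permutation p adjusted over the 10 genes of 0.0430 for Pdk4 and at most 0.000843 for the others. Spearman's rho for these 8 ran from 0.62 to 0.85, with adjusted permutation p of at most 0.00512, and r without the 2 arrays farthest from the median SD ran from 0.50 to 0.78. Pdk2 and Pdp2 showed no such relation (r of 0.03 and -0.02, rho of 0.01 and -0.10, adjusted permutation p of 0.911 each for r). Placebo arrays had the widest spread on average, and the narrowest arrays were beta-titled arrays 31 and 32 and estradiol array 33, so array spread differed between the groups being compared.

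Quantile normalization removes differences in array spread by construction, so a weaker relation to array spread after it is no independent result. After quantile normalization none of the 10 relations to array spread passed, with Pdp1 closest (r = 0.58, rho = 0.55, adjusted permutation p = 0.0647 and 0.141). Dlat turned to lie above placebo in all 3 comparisons, by 0.07, 0.02 and 0.09. Pdk1, Pdp1 and Pdhb turned to lie above placebo under estradiol, by 0.04, 0.01 and 0.03. The Pdk4 difference from placebo was then -0.18 for 16α-LE2, -0.51 for estradiol and -0.23 for the beta-titled group, against -0.27, -0.59 and -0.41 on the deposited values. Without the 3 arrays of narrowest spread, a setting chosen after the data were seen, the medians were -0.12, -0.07 and -0.04.

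**Figure D4:**
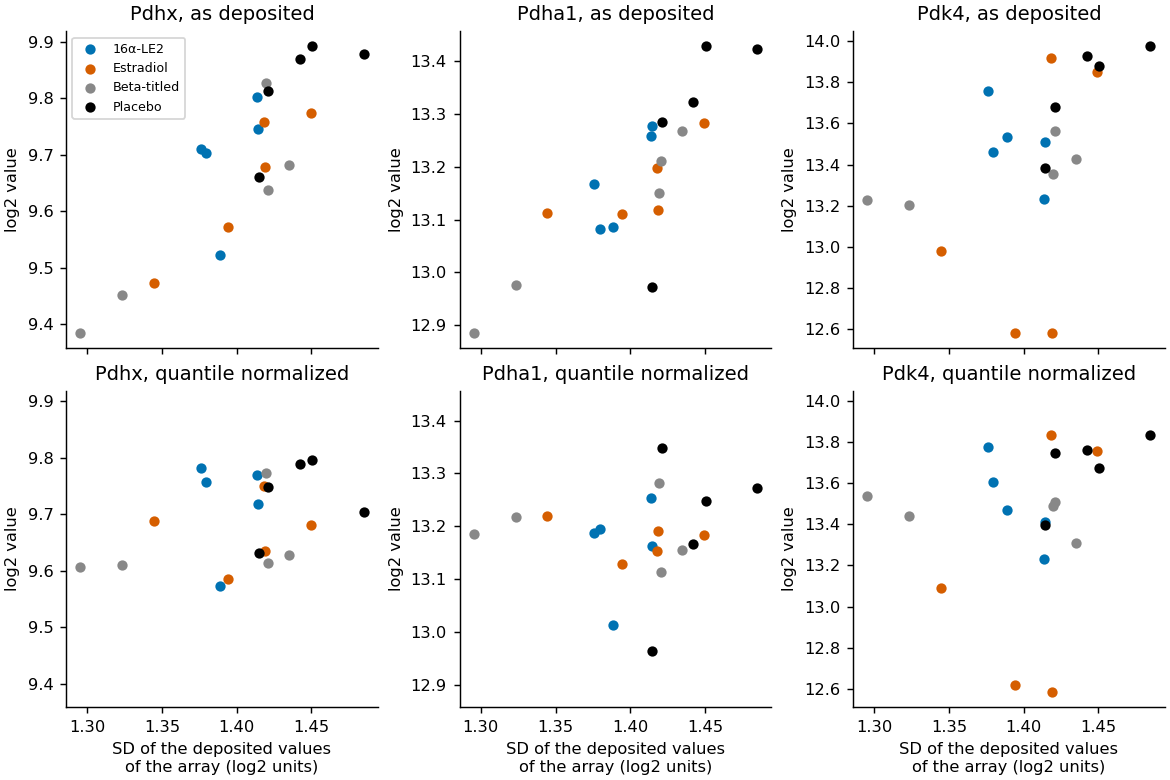
Log2 value of Pdhx, Pdha1 and Pdk4 (vertical axes) against the SD of the deposited values of the array (horizontal axis, log2 units), 1 point per array coloured by group, as deposited (top row) and after quantile normalization (bottom row, same vertical range per gene). The slope of Pdhx and Pdha1 (r of 0.86 and 0.83) is weaker after quantile normalization (r of 0.36 and 0.10), which removes differences in array spread by construction. The 3 low estradiol arrays of Pdk4 stay low.

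Across the 20 arrays, Mpc1 was the gene that followed Pdk4 most closely among the 9 others. Over all genes tested, many others followed Pdk4 as closely or more so. There Mpc1 ranked 72 by r and 20.5 by rho. After subtracting group means it ranked 147, below percentile 99 of all genes (0.745). The r of Mpc1 was 0.79 and its rho 0.85, with permutation p of 5e-05 and 1e-05 (0.00045 and 9e-05 after adjustment over the 9 genes set against Pdk4), where 1e-05 is the smallest p that 100000 permutations can give. Leaving out the 2 arrays of most extreme Pdk4 gave an r of 0.80, subtracting group means gave 0.73, and leaving out estradiol array 33 gave 0.77. After quantile normalization r was 0.78 (adjusted permutation p = 0.0009) and rho 0.69 (adjusted permutation p = 0.00891), and r without the 2 extreme arrays was 0.59. Pdhx and Pdha1 had an r with Pdk4 of 0.58 and 0.57 and a rho of 0.67 and 0.69 on the deposited values (adjusted permutation p of 0.0266 each for r, 0.00507 and 0.00414 for rho), and 0.50 and 0.18 for r after quantile normalization (0.0971 and 0.554). For the other 6 genes r lay between -0.45 and 0.45 on the deposited values, with an adjusted permutation p of at least 0.0948.

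Among genes outside the 10, those most like Pdk4 by Pearson r over the 20 arrays were Retreg1 (r = 0.90), a receptor for selective autophagy of the endoplasmic reticulum, Rab9 (0.87), a small GTPase of late endosomes, Etv3 (0.86), an ETS-family repressor, Eif2s2 (0.86), the β subunit of translation initiation factor eIF2, and Crbn (0.86), a substrate receptor of a cullin ubiquitin ligase. An r of 0.77 marks percentile 99 over all genes. Retreg1 came first also by Spearman's rho (0.93), after subtracting group means (0.89) and without estradiol array 33 (0.90). Of the 5 genes, 1 was shared with the top 5 by rho, 1 with the top 5 after subtracting group means and 4 with the top 5 without estradiol array 33. These values were ranked out of 12082 genes and are descriptions of these arrays.

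Retreg1 ran from 13.10 to 13.43 on 16α-LE2 arrays, from 12.58 to 13.44 on estradiol arrays, from 12.87 to 13.26 on beta-titled arrays and from 12.90 to 13.56 on placebo arrays. Its 3 low estradiol arrays were 33, 34 and 35, as for Pdk4. Its difference from placebo was -0.04 for 16α-LE2, -0.36 for estradiol and -0.27 for the beta-titled group, with limma adjusted p of 0.976, 0.499 and 0.707.

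**Figure D5:**
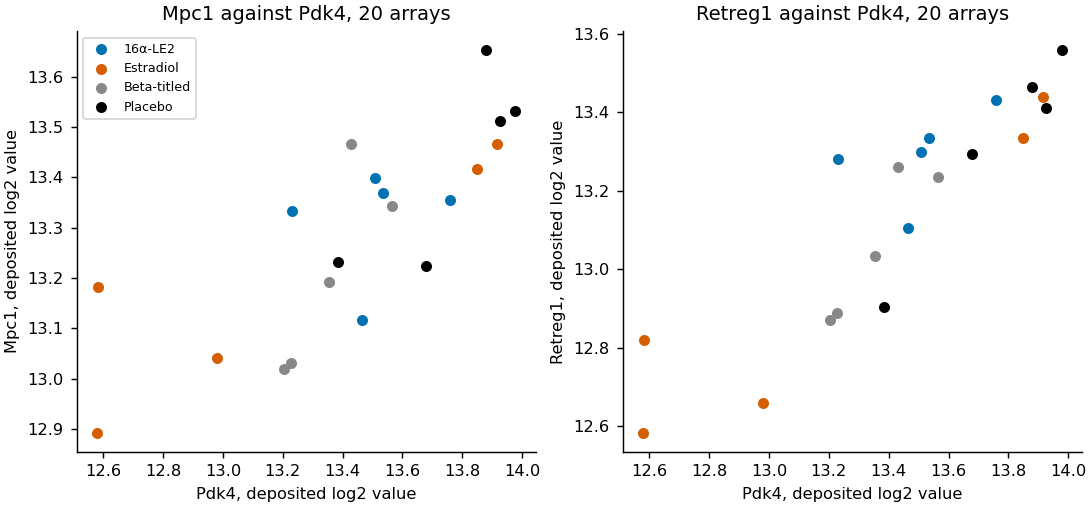
Deposited log2 values of Mpc1 (left, vertical axis) and Retreg1 (right, vertical axis) against Pdk4 (horizontal axis) on the 20 arrays, coloured by group. Both rise with Pdk4 (r of 0.79 and 0.90), and estradiol arrays 33, 34 and 35 sit at the low end of both panels.

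The neighbouring steps of pyruvate metabolism were described with a list of 17 genes for its supply and fate, of which 15 were tested. None was called in any comparison, and 10, 8 and 13 of the 15 lay below placebo with 16α-LE2, estradiol and in the beta-titled group, with medians of -0.04, -0.04 and -0.14. After quantile normalization, which was run on this and the next 4 lists after the data were seen, 5, 6 and 6 lay below and the medians turned to 0.024, 0.065 and 0.0076. Over all genes the medians were -0.03, -0.03 and -0.04 on the deposited values, and 0.014, 0.0015 and 0.0053 after quantile normalization, with 44.2%, 49.6% and 47.4% of genes below placebo. Dld, the E3 subunit that the complex shares with its relatives, averaged 11.64 ± 0.24, 11.53 ± 0.31 and 11.56 ± 0.30 in those groups, against 11.87 ± 0.20 with placebo. Its differences were -0.23, -0.33 and -0.30 (SE 0.15 each; limma adjusted p of 0.717, 0.499 and 0.707). Slc16a3, a lactate exporter near the filter, differed from placebo by 0.02, 0.17 and 0.07. The lactate dehydrogenase genes Ldha and Ldhb lay between -0.16 and 0.02 of placebo. Slc2a4, the insulin-responsive glucose transporter, lay between -0.10 and 0.01 of placebo, and Slc2a1, the basal transporter, differed by 0.39 with 16α-LE2 (limma adjusted p = 0.118), 0.25 with estradiol and -0.08 in the beta-titled group. Between 16α-LE2 and the beta-titled group Slc2a1 was 0.47 higher (limma adjusted p = 0.0469).

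The related 2-oxo acid dehydrogenases, which share the architecture of the complex, were listed with 7 genes, all tested and none called. Of the 7, 3 lay below placebo with 16α-LE2, 3 with estradiol and 7 in the beta-titled group, and 1 in each after quantile normalization. Dlst, the E2 subunit of 2-oxoglutarate dehydrogenase, differed by -0.13, -0.06 and -0.21, and Bckdhb, the E1β subunit of the branched-chain enzyme, by 0.13, 0.03 and -0.15.

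Genes of fat oxidation that respond to PPAR, as Pdk4 does, lay mostly below placebo on the deposited values. Of 24 listed genes 20 were tested and none was called, and 16 lay below placebo with 16α-LE2, 16 with estradiol and 20 in the beta-titled group, with medians of -0.13, -0.14 and -0.18, against -0.03, -0.03 and -0.04 over all genes, of which 59.7%, 57.1% and 62.6% lay below. After quantile normalization 13, 12 and 12 of the 20 lay below, with medians of -0.05, -0.03 and -0.0045, against 0.014, 0.0015 and 0.0053 over all genes. Over the 20 arrays their median r with Pdk4 was 0.49, from -0.28 for Cpt2 to 0.78 for Ehhadh, against a median of 0.07 over all genes. This r is given for the deposited values only, on which Pdk4 also followed the spread of the array (r = 0.47). The part of array spread in it was not tested. Plin5, a lipid droplet protein of oxidative muscle, averaged 11.68 ± 0.27 with 16α-LE2, 11.62 ± 0.36 with estradiol, 11.57 ± 0.21 in the beta-titled group and 12.05 ± 0.08 with placebo. Its differences were -0.37, -0.43 and -0.48 (SE 0.15 each; limma adjusted p of 0.416, 0.499 and 0.707). Cd36, the fatty acid translocase, differed by -0.21, -0.23 and -0.25, and Angptl4, a secreted inhibitor of lipoprotein lipase, by -0.66, -0.43 and -0.22 with an SE of 0.38.

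Genes that respond to FOXO factors and glucocorticoids, which also act on Pdk4, differed in direction against placebo between groups on the deposited values. With 16α-LE2 most lay above placebo, estradiol and the beta-titled group. The medians were 0.13, 0.13 and 0.14 in that order, against -0.03, -0.02 and 0.004 over all genes. Of 18 tested none was called. As deposited, 5 lay below placebo with 16α-LE2, 13 with estradiol and 12 in the beta-titled group. After quantile normalization 5, 8 and 5 lay below. Over all genes 59.7%, 57.1% and 62.6% lay below as deposited, and 44.2%, 49.6% and 47.4% after quantile normalization. With 16α-LE2, 2 of 18 lay below estradiol and 2 of 18 below the beta-titled group, under both scalings. Over all genes those shares were 56.3% and 48.1% as deposited, and 49.8% and 48.9% after quantile normalization. Cdkn1a, a cell cycle inhibitor, differed from placebo by -0.49, -0.61 and -0.85 (SE 0.19 each; limma adjusted p of 0.396, 0.499 and 0.707). Irs2, an insulin receptor substrate, differed by 0.40 with 16α-LE2 (limma adjusted p = 0.175), -0.05 with estradiol and 0.04 in the beta-titled group. The median r of the list with Pdk4 was 0.05.

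Of 14 regulators of Pdk4 transcription 13 were tested and none was called, with 9, 11 and 11 below placebo in the same order, or 6, 11 and 7 after quantile normalization. Pparg, a nuclear receptor better known from fat, averaged 8.10 ± 0.06 with 16α-LE2, 8.16 ± 0.12 with estradiol, 8.26 ± 0.13 in the beta-titled group and 8.41 ± 0.14 with placebo. Its differences from placebo were -0.31, -0.25 and -0.16 (SE 0.08 each; limma adjusted p of 0.142, 0.499 and 0.707). Ppargc1a, a coactivator of mitochondrial biogenesis, differed by -0.12, -0.41 and -0.29 (SE 0.12 each; limma adjusted p of 0.853, 0.499 and 0.707). Ppara, the PPAR form most tied to fat oxidation, differed by 0.03, -0.11 and -0.01, and Foxo1 by -0.10, -0.01 and -0.15.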

How the data were processed

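Total RNA of 20 ventricle samples, 100 ng each, was biotin-labelled and hybridised to Affymetrix mouse arrays, per the labels' protocols. The deposited values were read as log2 (they run from 5.07 to 15.31). Software, log base and normalization between arrays: not given in the sources used here, although array means are nearly equal. Of 45101 probe sets, 64 controls were left out and 34945 carried 1 gene symbol, 932 several and 9160 none. Gene names come from the platform annotation, with identifiers and promoters from RefSeq tables (GRCm38.p6), and probe background was not used.

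All 20 arrays were fitted with limma 3.58.1 in R 4.3.3 (group means, a spread per gene shared by the 4 groups, eBayes with an intensity trend). A call means an adjusted p under 0.05 (Benjamini-Hochberg over 12082 genes). The fit was tested on simulated normal noise with the same SD per gene in every group. That simulation held no outlying array and no difference in array spread, so it does not cover these features of the data. Correlations used 100000 permutations (scipy 1.17.1). The number of arrays limits precision.

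The members, gene lists and markers were chosen with earlier results of these data known. Named genes were the 10 members, the 5 genes most like Pdk4, up to 4 called or else the 2 genes of smallest p per list, and Pdk3, Dld, Mpc2, Ldha, Ldhb, Ppara, Foxo1, Angptl4, Slc2a1 and Slc2a4. Alternatives covered filter, probe set, scaling, array weights, groups fitted, replicate block and leaving out arrays.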

Additional observations from a re-analysis of the deposited data

Results flagged for a closer look

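In 2 of the 40 sets of 5 arrays examined (10 genes in 4 groups), 1 array stood apart from the other 4 by Dixon's criterion, which chance alone does in about 1 in 20 sets. Pdp2 was at 8.26 on estradiol array 34, against 7.25 to 7.45 on the other estradiol arrays. Mpc1 was at 13.12 on 16α-LE2 array 29, against 13.33 to 13.40 on the other 16α-LE2 arrays.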

How the results depend on the processing

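None of the 10 genes was called in any alternative run made for it: of 1208 alternative values 0 passed, and the smallest limma adjusted p was 0.170. For 16α-LE2 and for estradiol against the beta-titled group, alternatives covered Pdk4 only, with 28 values each. Each other comparison had 288 values and covered all 10 genes. Of the 1208 values 44 had the opposite sign to the main one, from -0.19 to 0.14, and the cause was not tested. With quantile normalization Dlat became 0.073 (16α-LE2 minus placebo), 0.021 (estradiol minus placebo) and 0.094 (beta-titled minus placebo), Pdk1, Pdp1 and Pdhb became 0.039, 0.014 and 0.033 (estradiol minus placebo), and Pdha1 became -0.012 (16α-LE2 minus estradiol). Centring arrays on the median gave -0.0073 for Pdk2 (beta-titled minus placebo). Array weights gave Pdk2 -0.036 (16α-LE2 minus placebo) and -0.018 (beta-titled minus placebo), and Pdp1 0.0013 (estradiol minus placebo). Without the 3 arrays of narrowest spread, Pdp1 was 0.00077 (estradiol minus placebo) and 0.038 (beta-titled minus placebo), Dlat 0.022 (beta-titled minus placebo) and -0.014 (16α-LE2 minus estradiol), and Pdha1 -0.0039 (16α-LE2 minus estradiol). Other probe sets gave Pdk1 0.14, 0.10 and 0.085 (the 3 groups minus placebo) and 0.0052 and 0.043 (16α-LE2 minus estradiol), Pdp1 0.0093 and Dlat 0.014 (estradiol minus placebo), and Dlat -0.024 (16α-LE2 minus estradiol).

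Leaving out each array in turn moved the differences from placebo to -0.0068 to 0.19 (Pdk2, 16α-LE2), -0.059 to 0.14 (Pdk2, beta-titled), -0.083 to 0.062 (Pdp2, 16α-LE2), -0.065 to 0.041 (Pdp2, beta-titled), -0.11 to 0.0045 (Pdp1, estradiol) and -0.12 to 0.018 (Pdhb, estradiol). For 16α-LE2 minus estradiol it gave -0.014 to 0.082 (Dlat) and -0.016 to 0.039 (Pdha1). The Pdk4 difference ranged from -0.37 to -0.20 for 16α-LE2, from -0.77 to -0.44 for estradiol and from -0.51 to -0.36 for the beta-titled group against placebo.

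Pairing of the arrays by title number was not evident: 6 of 17 same-number pairs had an r of deviations over 0.1, against 44 of 133 other pairs. The r of same-number pairs ran from -0.35 to 0.51, and a count over so few pairs cannot exclude pairing. With the number as a replicate block, Pdk4 differed from placebo by -0.59 (16α-LE2), -0.87 (estradiol, limma adjusted p = 0.170) and -0.41 (beta-titled), and 16α-LE2 minus beta-titled turned to -0.19. The block gave Pdp2 0.0044 (16α-LE2 minus placebo) and 0.084 (beta-titled minus placebo), and 4 called genes for 16α-LE2 minus estradiol.

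The number of called genes among all tested varied. For 16α-LE2 against placebo it was 27, against 16 with probe sets averaged, 357 with array weights, 60 without the 3 narrow arrays, and 8 (without placebo array 31) to 74 (without estradiol array 33) leaving out 1 array. For 16α-LE2 against estradiol it was 2, against 4 with no filter, 0 with probe sets averaged, 20 with array weights, 1 without the 3 narrow arrays, and 0 to 11 leaving out 1 array. For 16α-LE2 against the beta-titled group it was 21 (9 higher, 12 lower), against 32 after quantile normalization (9 and 23), 13 after centring (4 and 9), 122 with array weights, 46 with only these groups fitted, 10 without the 3 narrow arrays, and 7 to 37 leaving out 1 array. For estradiol against placebo and against the beta-titled group it was 0, and 0 to 1 leaving out 1 array. The arrays give no background per probe, so values near the filter, such as Pdp2, are not separated from background.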
